A study of Mus musculus with 2 samples.

Results

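The microRNA genes Mir216a, Mir216b, Mir217 and Mir375, best known from the pancreas, were examined in mouse hindbrain at embryonic day 16.5. They were taken by name rather than by level, though with earlier results of these data known. They are 4 of the 1973 genes in the count tables. The data come from 1 group of 2 biological replicates of B6NCrl hindbrain, each a pool of male and female embryos described as healthy, with 37 embryos in replicate 2. No embryo carried a treatment or an engineered allele according to the labels, and no second condition, age or tissue was present, so each value below describes this tissue or compares the 2 libraries. Total RNA was used to make libraries of small RNA.

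A microRNA is cut from a hairpin in a longer transcript, and either arm of the hairpin (5p or 3p) can be loaded into the silencing complex. Bases 2 to 8 of the loaded arm, the seed, do most of the pairing with target messenger RNAs. In the pancreas, miR-375 is known as an islet microRNA that restrains insulin secretion, whereas miR-216a, miR-216b and miR-217 are known from the acinar cells that make digestive enzymes. miR-375 is also known from the pituitary gland, and miR-217 from endothelial cells, where it represses Sirt1.

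All 4 genes have hairpin entries in RefSeq (GRCm38.p6, the assembly also called mm10), and these hold 7 mature arms. The arms are printed 5′ to 3′ because the counts join both arms of a hairpin. For the 3 cluster genes they show both arms that a count can contain, and for Mir375 the 5p arm only. Capitals mark the seed. No entry was at hand for miR-375-3p. The counts do not tell which arm of Mir375 was read, so the seed printed for it need not be that of the counted arm.

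miR-216a-5p: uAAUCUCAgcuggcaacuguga
miR-216a-3p: cACAGUGGucucugggauuaug
miR-216b-5p: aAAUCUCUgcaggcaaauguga
miR-216b-3p: aCACUUACcuguagagauucuu
miR-217-5p: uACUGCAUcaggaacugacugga
miR-217-3p: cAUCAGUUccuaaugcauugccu
miR-375-5p: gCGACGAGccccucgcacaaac

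The 7 arms had 7 different seeds, and none of those seeds occurred in an arm of another gene among 1738 mature entries. No arm sequence occurred in any other hairpin among 1005 entries. Reads of these 7 arms therefore had no second annotated hairpin of identical sequence in that table, and miR-375-3p was not checked. Such sharing matters in these libraries, because reads that fit several places (34.5% and 35.1% of all reads in replicates 1 and 2) were not assigned to genes.

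Mir216a and Mir216b are related in sequence. Their 5p arms are the same length and were compared base by base, counted from 1 at the 5′ end with miR-216a-5p first. They were identical at 18 of 22 positions and differed by U1A, A8U, U11A and C17A, which are the capitals here.

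miR-216a-5p: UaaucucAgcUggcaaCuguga
miR-216b-5p: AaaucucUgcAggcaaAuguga

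Only A8U lies in the seed, where 6 of 7 bases were the same. The 3p arms of the same pair were identical at 7 of 22 positions. No other pair among the 7 arms, compared without gaps, was identical at more than 8 positions.

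Mir216b (ENSMUSG00000076318), Mir216a (ENSMUSG00000065539) and Mir217 (ENSMUSG00000065415) lie in this order on the plus strand of chromosome 11 (mm10). Mir216b spans 28746191 to 28746276, Mir216a spans 28757012 to 28757083 and Mir217 spans 28763728 to 28763835. The stretch from the first to the last base is 17645 bases, with 10735 bases between Mir216b and Mir216a and 6644 between Mir216a and Mir217. In GENCODE M21, Mir216a and Mir217 lie in introns of the long noncoding gene Gm12082 on the same strand, and Mir216b overlaps only Mir216c, a hairpin on the minus strand. The nearest protein-coding genes are Ccdc85a, 161867 bases before Mir216b, and Efemp1, 89369 bases beyond Mir217. Mir375 (ENSMUSG00000065616) lies alone on the minus strand of chromosome 1, from 74900658 to 74900721, between the lens crystallin gene Cryba2 at 7515 bases and Cfap65 at 1350 bases. No listed microRNA gene lay within 100000 bases of Mir375.

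The cluster hairpins are printed with both mature arms in capitals, because the single count of each gene covers this whole stretch.

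Mir216b: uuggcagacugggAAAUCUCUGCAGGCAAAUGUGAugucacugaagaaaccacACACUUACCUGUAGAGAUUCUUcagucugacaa
Mir216a: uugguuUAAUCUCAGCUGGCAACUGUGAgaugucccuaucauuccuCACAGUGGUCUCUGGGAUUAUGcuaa
Mir217: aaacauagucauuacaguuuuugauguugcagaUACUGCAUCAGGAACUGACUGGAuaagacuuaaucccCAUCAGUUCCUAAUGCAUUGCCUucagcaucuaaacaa

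The hairpins differed in base composition. G and C made up 44.2% of the Mir216b hairpin, 44.4% of Mir216a, 38.0% of Mir217 and 67.2% of Mir375, against a median of 50% over 329 detected genes with a hairpin entry. Mir217 was near the low end of these genes, with 6.69% of them lower, and Mir375 near the high end, with 93.6% lower.

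Library totals on the sense strand were 5097205 counts (replicate 1) and 4460836 counts (replicate 2), and 385 genes were detected, meaning that they had at least 10 counts in both libraries. Levels are counts per 1000000 sense counts (CPM). A read covers most or all of a mature arm, so levels were not divided by hairpin length. Intervals are 95% exact (Clopper-Pearson) binomial intervals. They describe the error of counting alone, since amplified reads that carry no molecular identifier are not separate molecules.

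All 4 microRNAs were detected in both hindbrain pools, in the order Mir375, Mir217, Mir216b and Mir216a. Together they held 0.126% ± 0.00349 of all sense counts (SD, n = 2). In bulk tissue, few cells with much of a microRNA and many cells with little cannot be told apart.

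Mir375, the islet microRNA, had 3024 counts in replicate 1 and 2693 in replicate 2. These were 593 CPM (interval 572 to 615) and 604 CPM (581 to 627), with a mean of 598 ± 7.38 CPM (SD, n = 2). The intervals of the 2 libraries overlapped widely.

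Mir217 had 2140 and 1896 counts in replicates 1 and 2. Its levels were 420 CPM (402 to 438) and 425 CPM (406 to 445), with a mean of 422 ± 3.67 CPM (SD, n = 2). The SD of Mir217 was 0.869% of its mean, the smallest relative spread of the 4 genes.

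Mir216b had 683 and 733 counts, the only one of the 4 with more counts in the smaller library. Its levels were 134 CPM (124 to 144) and 164 CPM (153 to 177), with a mean of 149 ± 21.4 CPM (SD, n = 2). The intervals did not overlap, and the SD was 14.4% of the mean.

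Mir216a had 432 and 393 counts. Its levels of 84.8 CPM (76.9 to 93.1) and 88.1 CPM (79.6 to 97.3) overlapped, with a mean of 86.4 ± 2.37 CPM (SD, n = 2).

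**Figure D1:**
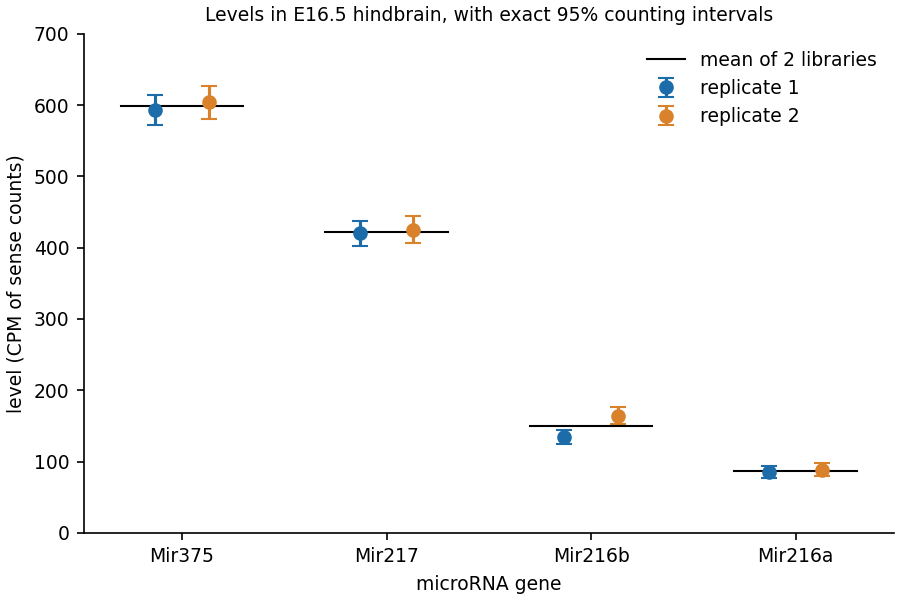
Level of each microRNA gene in CPM on a linear axis, with 1 point per library, exact 95% counting intervals as bars and a black line at the mean of 2 libraries. The libraries lie at nearly the same level for Mir375, Mir217 and Mir216a and apart for Mir216b (134 and 164 CPM).

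Every read on the 4 genes lay on the sense strand, with 0 counts on the opposite strand at each of them in both libraries. With a floor of 3 counts, the upper limit of such a 0 is 0.589 CPM for replicate 1 and 0.673 CPM for replicate 2. Mir216c, which the tables do not list, lies on the opposite strand at Mir216b, so reads of it that fit only this place were not detectable at this depth.

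Against the rest of the hindbrain microRNAs, the 4 genes sat in the middle of the range. Mir375 ranked 118 by mean level and lay above 69.4% of the 385 detected genes, and Mir217 ranked 135 and lay above 64.9%. Mir216b, at rank 195, lay next to the median of 150.2 CPM, and Mir216a, at rank 225, lay above 41.6%. Mir99a, the most abundant gene at 176698 ± 14552 CPM (SD, n = 2), exceeded Mir375 295-fold and Mir216a 2044-fold.

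**Figure D2:**
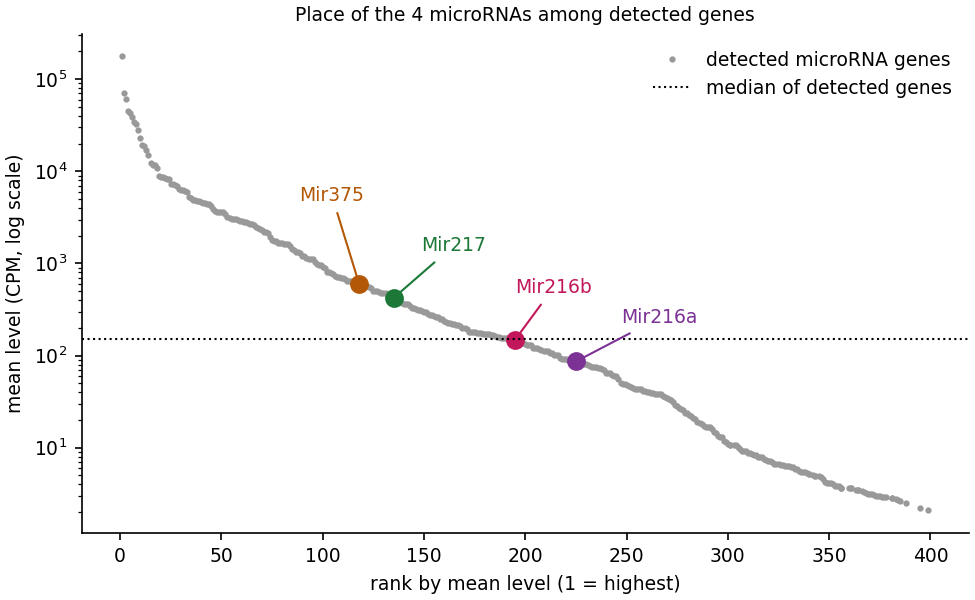
Mean level in CPM (log axis) of the 385 detected genes against their rank among all listed genes, with the 4 microRNAs marked and a dotted line at the median. Mir375 and Mir217 lie above the median of 150.2 CPM, Mir216b on it and Mir216a below it.

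With 1 group of 2 libraries no pattern across conditions can be matched, so genes like a member were taken as its neighbours in mean level. Mir375 stood between Mir448 (609 ± 80.7 CPM) and Mir101a (596 ± 1.62 CPM), and Mir217 between Mir485 (429 ± 27.6 CPM) and Mir338 (417 ± 16.5 CPM; SD, n = 2 for each). Mir216b stood between Mir1306 (149 ± 22.5 CPM) and Mir505 (148 ± 21.7 CPM). Mir216a stood between Mir539 (86.7 ± 10.3 CPM) and Mir192 (86.0 ± 0.108 CPM), a microRNA known from gut and kidney epithelium. Of the 16 neighbours, 2 above and 2 below each gene, all 16 lay within 2 SD of their member on the log2 ratio. They were picked for nearness in the mean of the same 2 libraries, so this was largely fixed by the choice. The order of each gene and its neighbours was not tested.

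Between the 4 genes themselves the order was the same in both libraries. A pair was called different when its log2 ratio had 1 sign in the 2 libraries and a mean beyond 2 SD, and all 6 pairs met this. How many pairs of other detected genes meet the rule was not counted, so the 6 calls are not read as particular to these genes. With 2 libraries the smallest p of an exact two-sided sign-flip test is 0.5, so the rule rests on the spread alone. Ratios between genes can also carry a bias of ligation or amplification that both libraries share, and this was not tested.

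Mir375 exceeded Mir217 by a log2 ratio of 0.50 in replicate 1 and 0.51 in replicate 2, a mean of 0.50 ± 0.0052 (SD, n = 2) or 1.42-fold. Mir217 exceeded Mir216a by 2.31 and 2.27 on the log2 scale, a mean of 2.29 ± 0.027 (SD, n = 2) or 4.89-fold. Mir375 exceeded Mir216a by 2.81 and 2.78, a mean of 2.79 ± 0.022 (SD, n = 2) or 6.93-fold. These 3 ratios were nearly the same in both embryo pools, and their counting intervals overlapped.

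The 3 ratios with Mir216b were less even. Mir217 exceeded Mir216b by 1.65 (interval 1.52 to 1.77) in replicate 1 and 1.37 (1.25 to 1.50) in replicate 2 on the log2 scale, a mean of 1.51 ± 0.20 (SD, n = 2). Mir375 exceeded Mir216b by 2.15 (2.03 to 2.27) and 1.88 (1.76 to 2.00), a mean of 2.01 ± 0.19 (SD, n = 2). In both of these pairs the intervals of the libraries did not overlap. Mir216b exceeded its relative Mir216a by 0.66 (0.48 to 0.84) and 0.90 (0.72 to 1.08), a mean of 0.78 ± 0.17 (SD, n = 2) or 1.72-fold, and here they overlapped.

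Within the chromosome 11 cluster, the hairpin at the downstream end supplied most of the counts. The 3 genes had 3255 counts in replicate 1 and 3022 in replicate 2, or 658 ± 27.5 CPM (SD, n = 2), close to the level of Mir375 alone. Mir217 made up 65.7% (exact interval 64.1% to 67.4%) and 62.7% (61.0% to 64.5%) of the cluster. Mir216b, at the upstream end, made up 21.0% (19.6% to 22.4%) and 24.3% (22.7% to 25.8%). Mir216a, in the middle, made up 13.3% (12.1% to 14.5%) and 13.0% (11.8% to 14.3%). Levels along the cluster thus did not run in one direction from the first hairpin to the last.

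**Figure D3:**
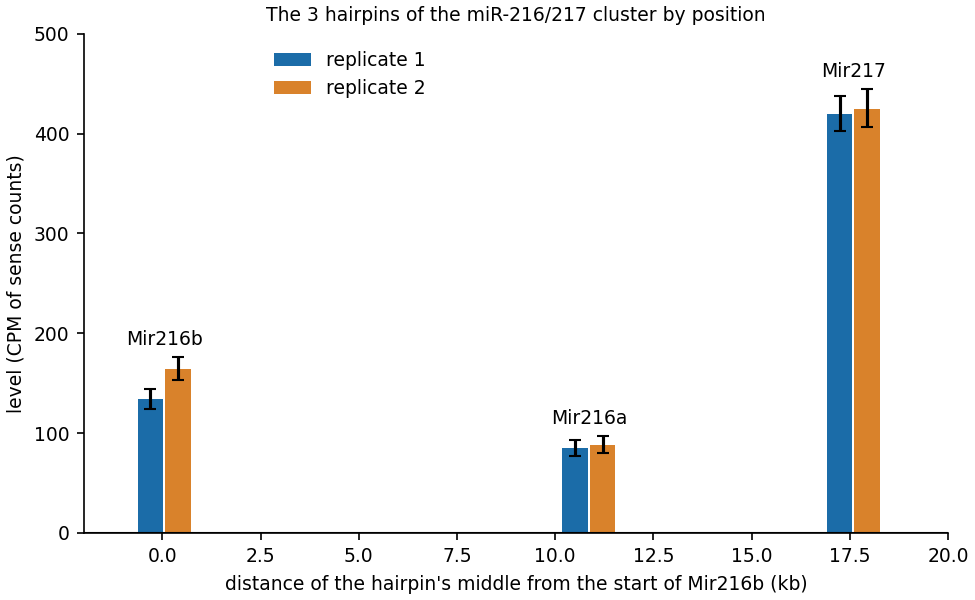
Level in CPM of the 3 cluster hairpins at their distance in kb from the start of Mir216b, with bars from 0 for each library (drawn side by side and wider than the hairpins) and exact 95% counting intervals. Mir217, 17537 bases from the start of Mir216b, is the highest in both libraries and Mir216a the lowest.

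Neighbouring microRNA genes on 1 strand are often cut from a common transcript, so the spread of levels within the cluster was set beside that of other clusters. Genes were joined where they lay at most 50000 bases apart, and 19 clusters had at least 3 detected genes. From Mir217 to Mir216a the range was 2.28 on the log2(CPM + 1) scale (2.30 in replicate 1 and 2.26 in replicate 2), or 4.84-fold. The median range of the 19 clusters was 5.08, from 1.40 to 11.5. Of the other clusters, 15 had a wider range and 3 a narrower one, which were those of Mir292 to Mir294, Mir344 and Mir182, Mir96 and Mir183. Among the 10 clusters with exactly 3 detected genes, 7 were wider and 2 narrower. Hairpins whose mature sequence lies at several loci lose reads to the multimapping class. Among the 12 clusters with no such gene found in the RefSeq entries, 9 were wider and 2 narrower, with a median of 4.65. This comparison was added after the data were seen. Over all 19 clusters, 12 of the 114 detected genes had no mature entry and were counted as not shared. The Mir669e cluster, counted as wider, held 10 of these genes. The search used only arms entered under each gene's own name, so a shared arm entered only under another gene was missed. Some of the 12 clusters can therefore still hold shared sequences. At the narrower joining distance of 10000 bases, Mir216b lay too far from Mir216a, and the 3 genes did not form 1 cluster. The range depends on how many genes a cluster has, and no test was made of it.

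**Figure D4:**
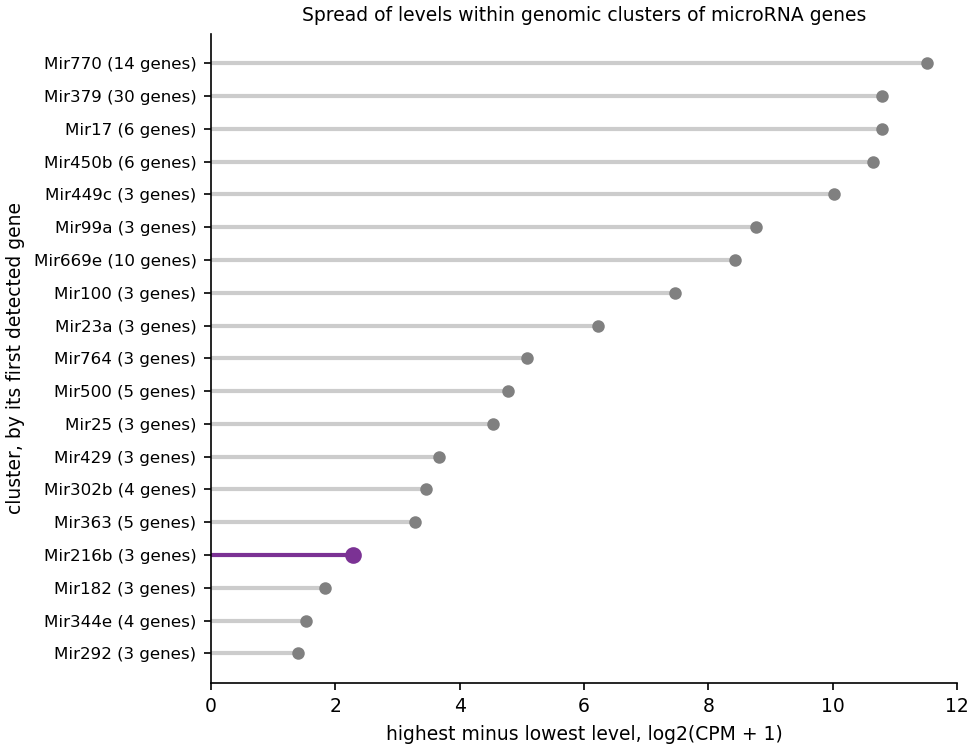
Highest minus lowest level on the log2(CPM + 1) scale within each of 19 clusters with at least 3 detected genes, named by the first detected gene, with the chromosome 11 cluster of Mir216b, Mir216a and Mir217 in purple at 2.28. Of the others, 3 are narrower and 15 wider, up to 11.5.

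For each of 401 genes whose counts summed to 20 or more, the 2 libraries were compared by a two-sided exact binomial test on totals scaled by TMM, with Benjamini-Hochberg adjustment. This test allows for counting noise only and compares 2 pools of 1 group, not conditions. It called 186 genes, or 46.4% of those tested, so a call by it is common in these libraries. Higher levels in replicate 2 were called for 88 genes, or 21.9%, and in replicate 1 for 98, or 24.4%. With plain library totals the split was 62 and 131.

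Of the 4 microRNAs, 2 were called higher in replicate 2, Mir216b and Mir375. Mir216b was 1.28-fold higher in replicate 2, with a log2 ratio of 0.36 (exact interval 0.21 to 0.51, exact binomial adjusted p = 1.18e-05). This difference was larger than that of 76.3% of the tested genes. Mir375 was 1.06-fold higher, with a log2 ratio of 0.090 (0.014 to 0.165, exact binomial adjusted p = 0.0410). The Mir375 call was lost with plain totals (adjusted p = 0.663), DESeq2 size factors (0.106), unstranded counts (0.0623) and no filter on low counts (0.0733).

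Mir217 and Mir216a did not pass. Their log2 ratios were 0.083 (interval -0.0074 to 0.172, exact binomial adjusted p = 0.140) and 0.12 (-0.080 to 0.32, exact binomial adjusted p = 0.358). The median absolute ratio of detected genes was 0.18, so Mir375, Mir217 and Mir216a all differed by less than a typical gene.

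edgeR's exact test, with a set spread between pools added to the counting noise, called none of the 4. With the biological coefficient of variation (BCV) set to 0.1, it called 7 of 401 genes, or 1.75%, and gave Mir216b an adjusted p of 0.726 (unadjusted 0.101). Using a BCV estimated across genes, which was 16.2%, the same test called 3 genes, or 0.748%, and the adjusted p of Mir216b was 1 (unadjusted 0.297). That BCV was estimated from the same 2 libraries that were compared, so their difference is part of the spread and few calls can result. It gives no evidence that the libraries were alike, and the BCV of 0.1 was assumed rather than measured. The unadjusted p of the other 3 lay between 0.612 and 0.807 in these edgeR exact tests.

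**Figure D5:**
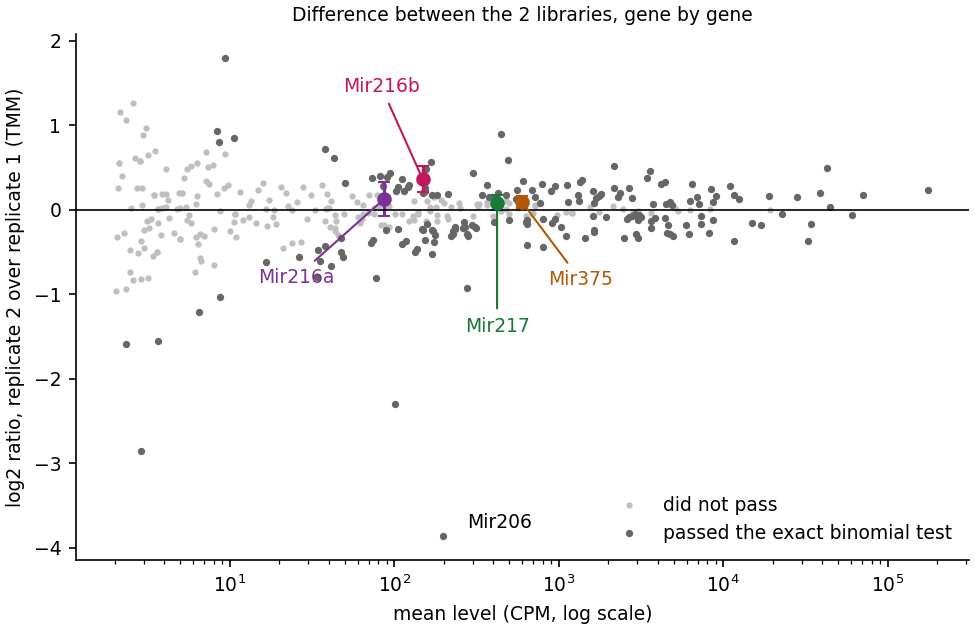
Log2 ratio of replicate 2 over replicate 1 after TMM scaling against mean level in CPM (log axis), for 401 tested genes, with exact 95% intervals for the 4 microRNAs and dark points for genes that passed the exact binomial test. Mir216b lies at 0.36 and the other 3 between 0.083 and 0.12, while the muscle microRNA Mir206 lies at -3.87.

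Other microRNAs known from the pancreas and endocrine cells were read from a list of 14 genes, the 4 included. All 14 were listed in the tables and 13 were detected. Between the libraries 4 of 13 tested members were called higher in replicate 1 and 3 in replicate 2, with a median log2 ratio of -0.040 against -0.0029 over all tested genes. The calls, 7 of 13, were near the 46.4% called among all 401 genes. Of the 10 genes beside the 4, 2 were above Mir375, 3 lay between Mir375 and Mir216a, and 5 were below Mir216a.

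On the acinar side, the only other gene was Mir148a, which is abundant in exocrine pancreas and liver. It had 1017 and 896 counts in replicates 1 and 2, or 200.2 ± 0.946 CPM (SD, n = 2), below Mir217 and above Mir216b.

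On the islet and endocrine side, Mir204 was the highest at 3106 and 4070 CPM, or 3588 ± 682 CPM (SD, n = 2). Mir204 is also a microRNA of the choroid plexus, which forms in the hindbrain roof. Mir7b, a neuroendocrine microRNA, followed with 1255 and 1167 CPM (1211 ± 62.3). The other hairpins of that family had 312 ± 41.5 CPM for Mir7-1 and 227 ± 39.3 CPM for Mir7-2 (SD, n = 2). By assigned reads both lay between Mir217 and Mir216b. Any read that fits both hairpins was not assigned, so these levels can be too low. Such sharing was not checked here.

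The low end of the list held Mir429 at 77.4 ± 32.1 CPM, Mir200c at 34.1 ± 14.0, Mir184 at 19.3 ± 2.18 and Mir141 at 8.0 ± 1.17 CPM (SD, n = 2). Mir802 had 4 and 10 counts and was not detected by the threshold. Levels over the whole list thus ran from 1.51 CPM for Mir802 to 3588 CPM for Mir204.

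Markers of the labelled tissue were present. Of 13 hindbrain and neural hairpins 12 were listed and 9 detected, led by the Hox-cluster genes Mir10a (60429 ± 3641 CPM) and Mir10b (33002 ± 7054) and by the neuronal Mir137 (8178 ± 1384; SD, n = 2). The hairpins of Mir9-2, Mir124a-2 and Mir124a-3 were under 10 counts in at least 1 library, and hairpins of these families share mature sequences.

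Markers of other tissues were also detected, some of them above members of the cluster. Mir122 of hepatocytes had 41.0 and 41.9 CPM, below each of the 4 microRNAs. The 4 hairpins of gut and kidney epithelium summed to 178 and 158 CPM, led by Mir192 (86.0 ± 0.108), Mir194-2 (74.7 ± 15.6) and Mir215 (5.27 ± 0.792). The 3 erythroid hairpins summed to 216 and 206 CPM, led by Mir451a (105 ± 10.7), Mir144 (72.7 ± 16.2) and Mir486 (33.0 ± 1.03; SD, n = 2).

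The 7 hairpins of epithelium summed to 813 and 703 CPM, led by Mir203 (563 ± 11.4), Mir429 and Mir205 (47.2 ± 12.9), so Mir203 lay above Mir217, Mir216b and Mir216a. By the binomial test 3 of 7 were called higher in replicate 1 and 0 in replicate 2, against 24.4% and 21.9% of all tested genes. Mir200c, Mir141 and Mir429 are also on the islet and endocrine list, so the calls of Mir200c and Mir429 were already counted there. The muscle list summed to 399 and 42.4 CPM, with 3 of 4 tested hairpins called higher in replicate 1 against 24.4% of all tested genes, and was led by Mir206 with 370 and 24.2 CPM, Mir208b (10.6 ± 1.07) and Mir499 (8.79 ± 4.50; SD, n = 2). Of its 8 listed hairpins, Mir1a-1, Mir133a-1 and Mir133a-2 had 0 counts in both libraries. Reads that fit several places were not assigned to genes, so these 0 counts do not show that the microRNAs were absent. The epithelium and muscle hairpins that passed were higher in replicate 1, the opposite direction to Mir216b. The others included Mir203, with a log2 ratio of 0.024 (exact binomial adjusted p = 0.693), and Mir208b, with -0.14 (adjusted p = 0.806). Mir204 was higher in replicate 2 by a log2 ratio of 0.45, the same direction as Mir216b, and the part of these markers in that difference was not tested.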

How the data were processed

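Read counts for each gene, not normalized, were deposited by the authors, made on mm10 with GENCODE M4 per the text files deposited beside them. No source used here names the aligner or the counter. Each table gives counts on either strand and on each strand. The column with nearly all reads was taken as sense, and 4 summary lines stayed out of totals. Identifiers were matched without version to GENCODE M21 (1894 of 1973), and sequences came from RefSeq tables (GRCm38.p6).

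Members and lists were chosen with earlier results of these data known. The text names the 4 genes, their rank neighbours, and the 3 most abundant genes of each list. The other genes of the pancreas and endocrine list and markers at or near 0 were named after their values were seen. The cluster gap was planned at 10000 bases. That gap separates Mir216b from Mir216a, so the wider gap of 50000, also listed beforehand as an alternative, is reported. The library test was tried on simulated counts that held counting noise only, as the test itself assumes. That simulation does not show how the test behaves with spread between pools. Alternatives were other totals, scalings, strand columns, filters, pseudocounts and single replicates. Scaling and the edgeR exact tests ran in R 4.3.3 (DESeq2 1.42.0, edgeR 4.0.16). The rest ran in Python 3.11.15 with scipy 1.17.1, pandas 2.3.3 and numpy 2.4.6, and plots were drawn in matplotlib 3.10.9.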

Additional observations from a re-analysis of the deposited data

How the results depend on the processing

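All 6 ratios between the 4 microRNAs kept their direction and their side of 2 SD with CPM + 1. The added 1 is small beside even the lowest level, 86.4 CPM for Mir216a, so this hardly tests the ratios. Unstranded counts leave these ratios identical, since no member had counts on the opposite strand, and leaving out 1 of 2 libraries moves any mean by the same share of its SD, so neither tests them. CPM values follow the total used. With Mir99a left out of the total, Mir216a, Mir216b, Mir217 and Mir375 had 105, 181, 513 and 727 CPM, and with multimapping reads added to it 49.2, 84.9, 241 and 341 CPM. With unstranded totals Mir217 had 412 and Mir375 584 CPM. TMM and DESeq2 factors are centred over the 2 libraries, so they hardly move a mean level and do not test it.

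The number of genes called between the libraries fell from 186 to 7 in edgeR's exact test at a BCV of 0.1 and to 3 at the estimated BCV, and it was 179 to 195 with other scalings, filters or strand columns. In the 2 edgeR exact tests Mir216b kept its log2 ratio of 0.36 and lost its call. The Mir375 log2 ratio, 0.090 as reported, was 0.025 with plain totals, 0.074 with DESeq2 size factors, 0.083 with unstranded counts, and 0.090 without the count filter and in both edgeR exact tests, and its call was lost in all 6. The calls of Mir217 and Mir216a did not change in any of these.

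The cluster range of 2.28 stayed between 2.26 and 2.30 with other pseudocounts, detection limits or single replicates. The 3 hairpins lie far above these limits and pseudocounts, and the single replicates are the values averaged. These settings therefore hardly test the range. Of the other clusters 15 were wider as reported, with 19 clusters in all. When 1 count in both libraries sufficed for detection, 18 were wider, with 20 clusters in all. Among clusters with no shared mature sequence found, 9 were wider. Depth limits the text to changes beyond counting error, and 2 libraries give no test of the order.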
